A study of Rattus norvegicus with 47 samples.

Results

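The genes described here are 10 cell cycle and proliferation genes of the rat kidney: Cdk1, Ccnb1, Ccnb2, Ccna2, Mki67, Top2a, Birc5, Mcm2, Mcm5 and Pcna. They were taken by symbol from the count table, where each has 1 row among 22525 genes, and all 10 were among the 15868 genes that passed the filter on low counts. Kidney RNA was sequenced from rats 12 months after surgery to implant a cylindrical metal pellet, 1 mm wide and 2 mm long. The pellets were lead (Pb, 7 libraries), depleted uranium (DU, 8), aluminium (Al, 8), cobalt (Co, 8), tungsten (W, 8) or tantalum (Ta, 8), an inert metal to which the others were compared. Rats were assigned to metals at random, and the strain, sex and age of the animals and the number of pellets in each are not given in the sources used here. No group without a pellet was analysed here, so each difference is from kidneys of rats that carried Ta. Each library bears its own animal number, and these numbers run in 1 block per metal, so handling order and metal cannot be told apart.

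Total counts were 21604755 to 35775818 per library, with a median of 26363810. Levels are in CPM, counts over a library total scaled by the trimmed mean of M values (TMM), in the customary unit. Transcript lengths were not used, so a level is compared between libraries and never between genes. Among counts of 1 to 9, 72.8% were even, against 50.3% among counts of 200 to 2000, so counting error at low counts is larger than the number of reads alone would give. Tests were made on the variation among animals. One kidney, DU replicate 6, stood apart in injury genes: Havcr1 was 1180 CPM there, against 12 to 193 CPM in the other 7 DU kidneys, and results for DU are given with and without it. Markers of proximal tubule, the main cell of kidney cortex, were high in every group, at a mean log2 CPM of 8.1 ± 0.274 in Pb kidneys and 9.19 ± 0.136 in Ta kidneys (SD, n = 7 and 8). In DU replicate 6 this mean was 5.81, against 8.5 to 9.61 in the other 7 DU kidneys. Its mean for collecting duct markers was 4.63, against 6.07 to 7.16, and for urothelial markers -1.75, against 1.91 to 3.69.

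A dividing cell copies its DNA in S phase and separates the copies in mitosis, and a set of genes is switched on for each step. Cyclins activate cyclin-dependent kinases, the minichromosome maintenance (MCM) complex licenses and opens replication origins, and PCNA is the sliding clamp that holds DNA polymerase on its template. In a resting cell the retinoblastoma proteins and the DREAM/MuvB complex hold these genes off through E2F and CHR promoter elements, and CCAAT boxes bind the activator NF-Y. Few tubular cells of an adult kidney divide at any time, and surviving tubular cells enter the cycle after injury.

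The promoters of 9 of the 10 genes were found in RefSeq, on build GRCr8, as windows of 250 bases before and 50 after the annotated start. Both strands were searched for the CHR core TTTGAA, the CCAAT box and the E2F-type letters GCGGGAA, TTTGGCGC and TTTCCCGC, of which the first and the last overlap where they share letters. The promoters of the genes called against Ta are shown, with that of Cdk1, which lay near the threshold in Pb against Ta kidneys. That of Mcm5 is shown too, which alone held any of these E2F-type letters. Other forms of E2F site, such as TTTCGCGC, were not searched and are not marked. Capitals mark every match to the letters searched, and the sequence runs 5′ to 3′ on the gene's own strand.
Birc5 (GRCr8 chr10:103571896-103572195, plus strand): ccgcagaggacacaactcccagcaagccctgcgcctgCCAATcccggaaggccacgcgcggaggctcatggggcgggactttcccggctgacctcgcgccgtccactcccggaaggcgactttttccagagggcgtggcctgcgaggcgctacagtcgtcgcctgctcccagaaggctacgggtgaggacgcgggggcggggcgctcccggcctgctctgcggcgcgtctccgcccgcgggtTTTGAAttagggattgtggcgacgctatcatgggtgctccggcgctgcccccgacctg
Pcna (GRCr8 chr3:139955771-139956070, minus strand): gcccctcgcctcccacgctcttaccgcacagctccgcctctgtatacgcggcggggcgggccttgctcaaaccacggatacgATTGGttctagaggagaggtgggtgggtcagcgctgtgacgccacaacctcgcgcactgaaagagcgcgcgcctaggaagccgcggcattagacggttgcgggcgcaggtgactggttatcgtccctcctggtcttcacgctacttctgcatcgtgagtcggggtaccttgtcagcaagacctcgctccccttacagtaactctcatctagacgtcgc
Ccnb2 (GRCr8 chr8:79981609-79981908, minus strand): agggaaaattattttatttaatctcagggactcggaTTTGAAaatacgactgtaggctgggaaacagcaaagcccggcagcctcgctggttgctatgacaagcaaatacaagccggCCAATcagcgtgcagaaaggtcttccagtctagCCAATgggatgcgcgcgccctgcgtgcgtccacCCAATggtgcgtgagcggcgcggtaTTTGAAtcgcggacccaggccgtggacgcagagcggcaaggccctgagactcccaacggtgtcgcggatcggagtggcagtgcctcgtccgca
Ccnb1 (GRCr8 chr2:33655176-33655475, minus strand): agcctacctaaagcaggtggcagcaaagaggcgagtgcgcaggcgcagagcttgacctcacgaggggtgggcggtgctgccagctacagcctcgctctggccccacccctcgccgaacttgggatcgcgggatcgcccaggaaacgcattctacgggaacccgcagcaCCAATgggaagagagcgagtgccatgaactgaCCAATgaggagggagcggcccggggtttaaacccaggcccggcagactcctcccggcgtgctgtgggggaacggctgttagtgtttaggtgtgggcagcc
Cdk1 (GRCr8 chr20:19265043-19265342, plus strand): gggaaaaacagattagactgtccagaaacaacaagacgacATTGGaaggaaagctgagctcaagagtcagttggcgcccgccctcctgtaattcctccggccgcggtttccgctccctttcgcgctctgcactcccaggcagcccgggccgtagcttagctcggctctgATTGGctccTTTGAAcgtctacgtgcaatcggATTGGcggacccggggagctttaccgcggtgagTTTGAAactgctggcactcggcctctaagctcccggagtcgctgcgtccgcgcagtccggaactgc
Mcm5 (GRCr8 chr19:13488563-13488862, plus strand): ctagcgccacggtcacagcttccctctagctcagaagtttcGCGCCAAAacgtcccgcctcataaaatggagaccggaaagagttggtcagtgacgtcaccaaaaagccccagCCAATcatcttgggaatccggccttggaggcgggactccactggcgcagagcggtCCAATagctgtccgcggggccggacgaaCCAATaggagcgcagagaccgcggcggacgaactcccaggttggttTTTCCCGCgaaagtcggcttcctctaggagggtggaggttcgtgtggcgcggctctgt

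TTTGAA stood in 6 of these 9 promoters, against 18.3% of 33469 promoters in the RefSeq table. CCAAT stood in 8 of the 9, against 37.5% of all promoters, and at least 3 times in 5 of them (Mki67, Top2a, Cdk1, Ccnb2 and Mcm5), against 3.02%. Both TTTGAA and CCAAT stood in 5, namely Mki67, Top2a, Cdk1, Ccnb2 and Birc5, against 7.41%. In Ccnb2 the 3 CCAAT boxes lay 33 bases apart from one another, with TTTGAA downstream of them, 43 bases before the start. In Ccnb1 and Cdk1 a pair of CCAAT boxes lay 32 bases apart. The Pcna window held a single CCAAT box and none of the other letters, and the Mcm2 window held TTTGAA at 2 places and no CCAAT. TTTCCCGC ended at the base before the start of Mcm5, where it overlaps GCGGGAA on the other strand. GCGGGAA was present in 4.21% of all promoters, TTTGGCGC in 0.493% and TTTCCCGC in 0.974%. A match is a description of letters and says nothing of binding.

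**Figure D1:**
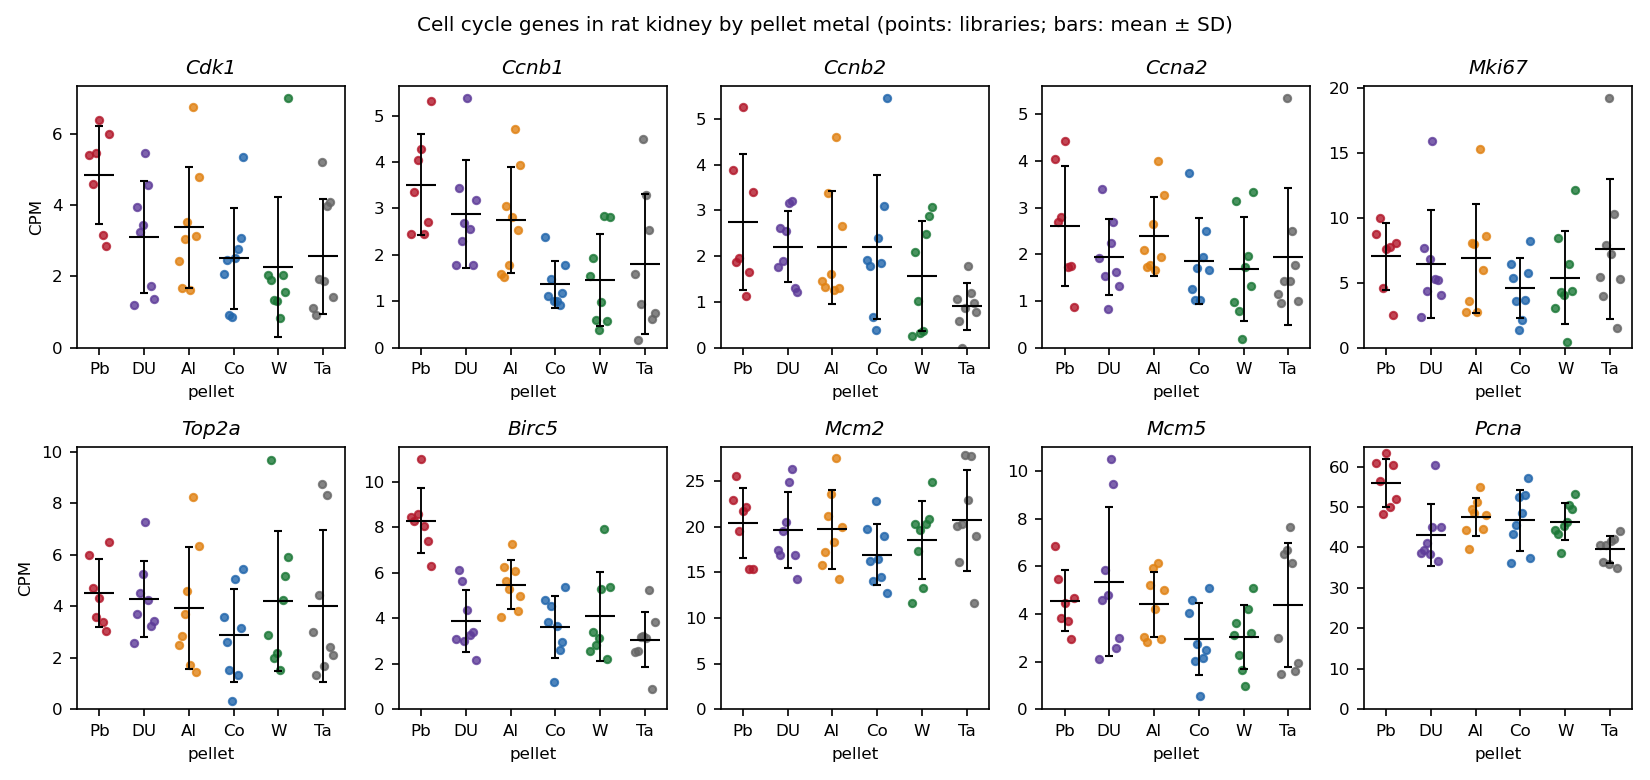
Level of each of the 10 genes (CPM, linear axis from 0) in every kidney library, by pellet metal. Points are libraries (7 for Pb, 8 for each other metal) and black bars the mean ± SD; with this TMM scaling, though not by plain library totals, Birc5 and Pcna in every Pb kidney lie above every Ta kidney, whereas most other genes spread widely within each metal.

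Kidneys with Pb pellets had more RNA of Birc5, Pcna, Ccnb2 and Ccnb1 than kidneys with Ta pellets. Birc5 encodes survivin, a subunit of the chromosomal passenger complex that corrects chromosome attachment in mitosis and also an inhibitor of apoptosis. Birc5 measured 6.3, 7.39, 8.07, 8.29, 8.43, 8.56 and 11 CPM in the 7 Pb kidneys, against 0.889, 2.51, 2.55, 3.12, 3.15, 3.21, 3.83 and 5.22 CPM in the 8 Ta kidneys. With TMM scaling the lowest Pb kidney was above the highest Ta kidney. The fitted log2 fold change was 1.43 ± 0.27 (SE), a 2.7-fold difference (edgeR's quasi-likelihood test, adjusted p = 1.89e-05 over all 15868 genes).

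Pcna measured 48.3, 50, 52.1, 56.5, 60.4, 60.8 and 63.3 CPM in Pb kidneys, against 34.8, 36, 36.5, 40.7, 40.7, 41.7, 42 and 44.1 CPM in Ta kidneys. Here too the groups did not overlap with TMM scaling. The difference was small in size, 0.50 ± 0.09 on the log2 scale or 1.41-fold, and had an adjusted p of 1.92e-05. Pcna was the least variable of the 10 genes within groups, with a pooled SD of 0.18 log2 units, against 0.33 for Mcm2 and 0.54 to 1.06 for the others. RefSeq lists Pcna pseudogenes that are no rows of the table, and the treatment of reads that match several places is not given in the sources used here, so reads of Pcna and of such copies cannot be told apart.

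Cyclin B1 and cyclin B2, encoded by Ccnb1 and Ccnb2, activate CDK1 at entry into mitosis. Ccnb2 ranged over 1.13 to 5.27 CPM with a median of 1.96 in Pb kidneys, against 0 to 1.79 CPM with a median of 0.917 in Ta kidneys. The groups overlapped, although all 7 Pb kidneys were above the Ta median. Counts were few, as low as 25 reads in a Pb library and at most 55 in a Ta library. The log2 fold change was 1.59 ± 0.52 (adjusted p = 0.00888). Ccnb1 ranged over 2.45 to 5.32 CPM with a median of 3.35 in Pb kidneys, against 0.154 to 4.49 CPM with a median of 1.26 in Ta kidneys. All Pb kidneys were again above the Ta median, and 3 of the 8 Ta kidneys reached the Pb range. The log2 fold change was 0.97 ± 0.42 with an adjusted p of 0.0474, and it lost its call when any 1 of 20 libraries was left out, with adjusted p up to 0.106.

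Cdk1, the kinase that drives mitosis, did not pass the threshold. It measured 2.86 to 6.41 CPM with a median of 5.41 in Pb kidneys, against 0.927 to 5.21 CPM with a median of 1.91 in Ta kidneys (log2 fold change 0.92 ± 0.41, adjusted p = 0.0532). The other 5 genes were not called in Pb kidneys. Ccna2, whose cyclin A2 acts in S phase and before mitosis, averaged 2.61 ± 1.29 CPM in Pb kidneys and 1.95 ± 1.46 CPM in Ta kidneys (SD, n = 7 and 8, adjusted p = 0.393 by edgeR). Mki67, which encodes the Ki-67 antigen used to count cycling cells, averaged 7.02 ± 2.59 CPM in Pb kidneys and 7.6 ± 5.38 CPM in Ta kidneys (adjusted p = 0.844 by edgeR). Top2a, the topoisomerase that untangles sister chromatids, averaged 4.5 ± 1.32 CPM in Pb kidneys and 4 ± 2.95 CPM in Ta kidneys (adjusted p = 0.761 by edgeR). The MCM helicase subunits Mcm2 and Mcm5 had log2 fold changes of -0.02 ± 0.17 and 0.06 ± 0.37. For Mki67 the 95% interval of the log2 fold change was -1.02 to 0.78 and for Top2a -0.68 to 1.02, so the data do not exclude changes in either direction within those bounds. Less RNA per cell and fewer cells of a kind cannot be told apart in whole tissue.

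In the Pb comparison 4 of the 10 genes were called, all higher, while 53.7% of all 15868 tested genes were called in either direction. The share among the 10 genes is thus no larger than that among all genes. Their median log2 fold change was 0.46, against -0.07 over all tested genes. How many of all tested genes had Pb and Ta ranges without overlap, as Birc5 and Pcna had with TMM scaling, was not counted. TMM factors were 0.823 to 0.933 in Pb libraries and 0.967 to 1.17 in Ta libraries, so the scaling bears on these values. By plain library totals the groups overlapped: Birc5 was 5.87 to 9.06 CPM in Pb kidneys and 0.86 to 5.98 CPM in Ta kidneys, and Pcna was 42.5 to 55.1 CPM in Pb kidneys and 33.6 to 48.1 CPM in Ta kidneys. The uncalled differences of Top2a and Mcm5 turned direction: by plain totals Top2a averaged 4.04 CPM in Pb kidneys and 4.44 CPM in Ta kidneys, and Mcm5 averaged 4.09 CPM in Pb kidneys and 4.81 CPM in Ta kidneys, whereas with TMM Mcm5 averaged 4.56 CPM in Pb kidneys and 4.38 CPM in Ta kidneys. The summed CPM of the 10 genes was 1.32 times as high in Pb as in Ta kidneys with TMM, and 1.08 times with plain totals.

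**Figure D2:**
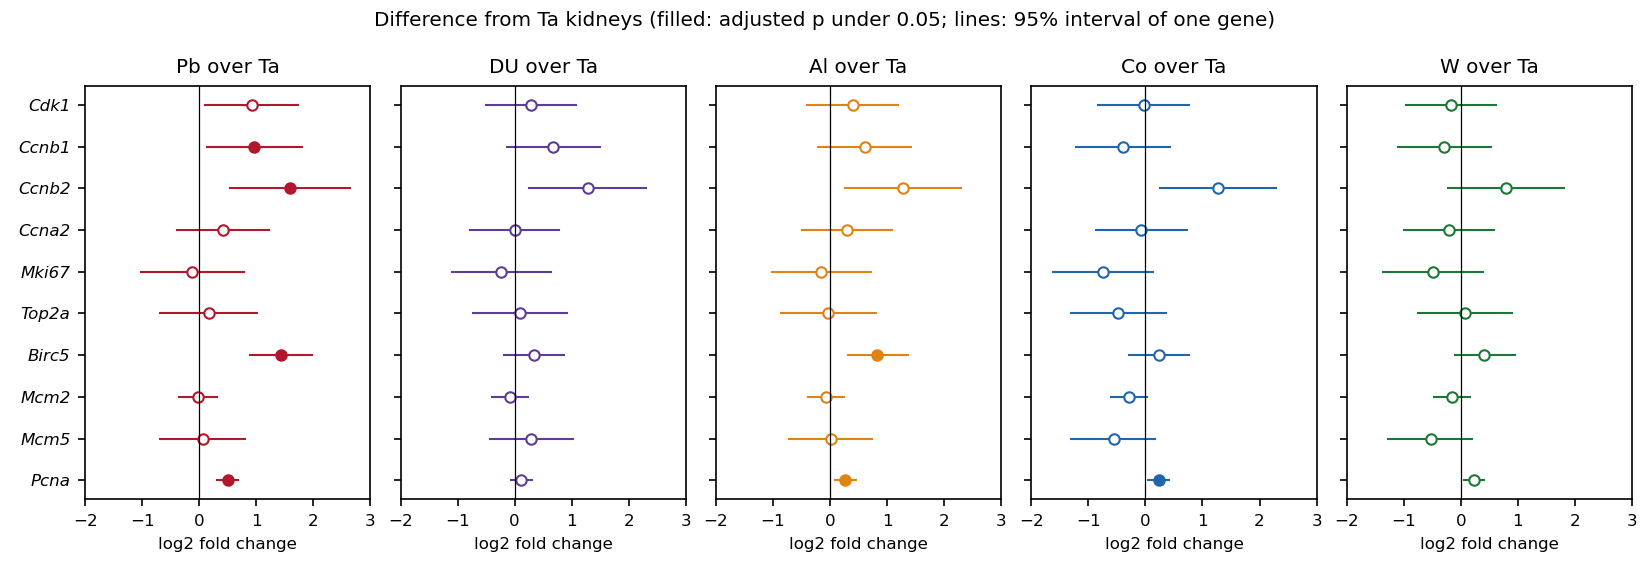
Fitted log2 fold change of the 10 genes in kidneys with each metal over Ta kidneys, 1 panel per metal. Lines are 95% intervals of a single gene and filled points have an adjusted p under 0.05; Birc5 and Pcna are filled for Pb and Al, Ccnb1 and Ccnb2 for Pb and Pcna for Co. All 5 panels share the same Ta kidneys.

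Several properties of the Pb libraries moved with these differences. The balance between small and very large genes, taken as mean log2 CPM over 34 genes of small ribosomal proteins less the mean over 36 genes whose proteins are very large, was 3 to 4.39 in Pb kidneys, against 1.04 to 1.95 in Ta kidneys. With this balance as a covariate none of the 10 genes was called in any of the 5 comparisons with Ta. The share of all tested genes called was then 3.68% for Pb, 2.62% for DU, 1.92% for Al, 1% for Co and 0% for W, and it was 28.9% in the test among all 6 metals, where none of the 10 was called either. In that fit the Pb log2 fold changes were 0.96 ± 0.5 for Birc5, 0.09 ± 0.15 for Pcna, -0.14 ± 0.71 for Ccnb1 and -0.67 ± 0.85 for Ccnb2. Because no Pb kidney overlapped a Ta kidney in the balance, it and the metal cannot be told apart. The same holds for Al (1.97 to 3.27), Co (1.98 to 2.92) and DU kidneys (2.14 to 3.06), whereas W kidneys (1.57 to 2.41) overlapped Ta kidneys.

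Markers of other cell types also differed in Pb kidneys. All 6 podocyte markers tested, all 8 endothelial markers and 7 of 8 stromal markers fell, with median log2 fold changes of -2.44, -1.68 and -1.64. Of the tubule, 6 of 10 proximal tubule markers and 3 of 5 thick limb and distal markers fell (medians -0.73 and -1.05), and 2 of 7 collecting duct markers rose and 1 fell. Of 6 urothelial and 4 adipocyte markers, 2 of each list rose (medians 1.03 and 1.11), and of 6 erythroid markers 1 rose and 2 fell. Of immune cells, which can divide in an inflamed kidney, 4 of 13 macrophage markers, 1 of 11 T and NK cell markers and 1 of 9 B and plasma cell markers fell, and 1 B and plasma cell marker rose. The mean log2 CPM of the macrophage list was 2.48 to 3.8 in Pb kidneys, against 2.51 to 4.97 in Ta kidneys, and that of the T and NK list 0.04 to 1.41 in Pb kidneys, against 0.02 to 2.66 in Ta kidneys. That of the B and plasma cell list was -0.69 to 0.16 in Pb kidneys, against -1.53 to 1.3 in Ta kidneys. Cd163 of macrophages and Ms4a1 of B cells were at 0 in at least 1 library of both groups. With the macrophage mean as a covariate Birc5 stayed at 1.49 ± 0.27 and Pcna at 0.50 ± 0.1 in Pb kidneys, and Cdk1 was called as well (1.2 ± 0.37, adjusted p = 0.00608). The part of the other lists in these results was not tested.

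**Figure D3:**
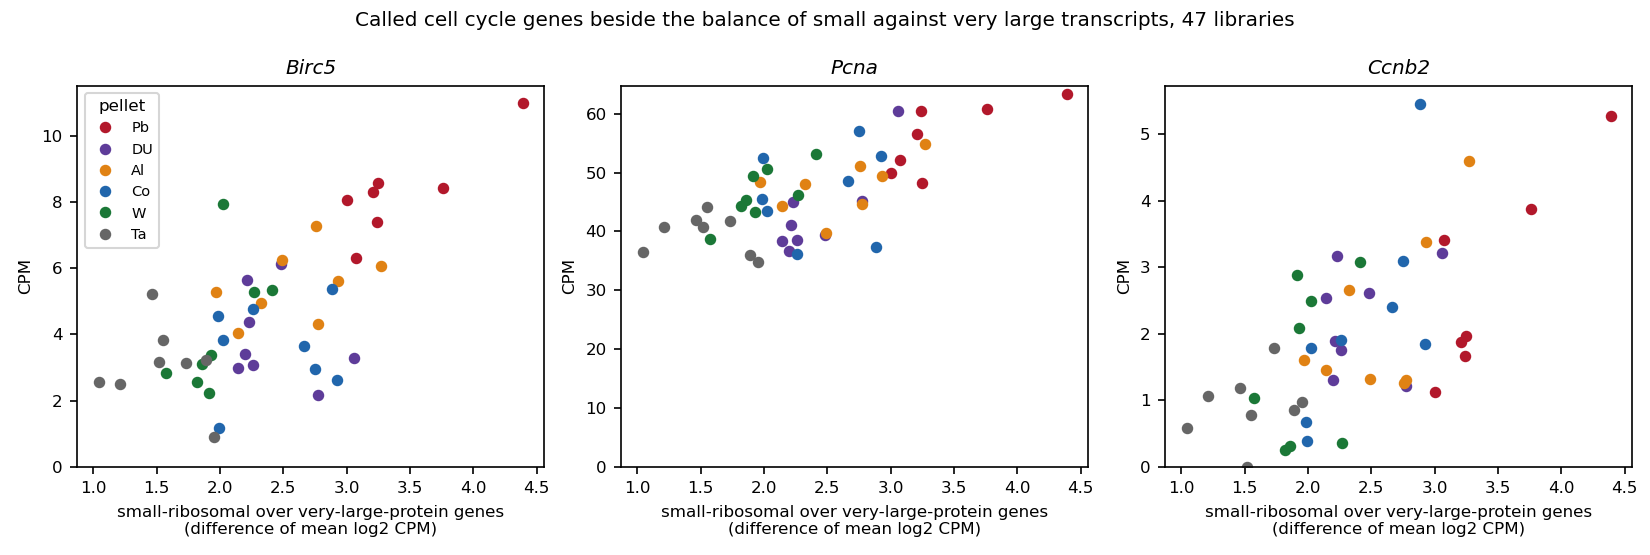
Level (CPM) of Birc5, Pcna and Ccnb2 against the balance of small ribosomal over very large protein genes (difference of mean log2 CPM) in 47 kidney libraries, coloured by metal. Pb kidneys lie between 3 and 4.39 on the horizontal axis and Ta kidneys between 1.04 and 1.95, and the other metals between 1.57 and 3.27.

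Kidneys with DU pellets showed no called change in any of the 10 genes, while 15.3% of all tested genes were called in that comparison. At an unadjusted p under 0.05 there was 1 gene, Ccnb2, and DESeq2 called that gene. Ccnb2 ranged over 1.21 to 3.21 CPM with a median of 2.22 in DU kidneys, against 0 to 1.79 CPM with a median of 0.917 in Ta kidneys (log2 fold change 1.28 ± 0.51, adjusted p = 0.0785). Every DU kidney was above the Ta median, and so it was for Ccnb1, at 1.79 to 5.38 CPM in DU kidneys, against 0.154 to 4.49 CPM in Ta kidneys (adjusted p = 0.271). When Ta replicate 5 alone was left out Ccnb2 was called (log2 fold change 1.53, adjusted p = 0.0462).

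DU replicate 6 stood apart from the other DU kidneys. It had 60.5 CPM of Pcna, against 36.6 to 45.1 CPM in the other 7, and 1180 CPM of the injury gene Havcr1. Without that kidney the DU comparison still called none of the 10 genes, and 12.3% of the genes tested were called. The log2 fold change of Pcna was 0.07 ± 0.09 without it, against 0.12 ± 0.09 with it, and that of Ccnb2 was 1.21 ± 0.52 (adjusted p = 0.125). Birc5 in DU kidneys, at 3.88 ± 1.38 CPM, and in Ta kidneys, at 3.06 ± 1.23 CPM (SD, n = 8 each), differed by less than the spread between animals (log2 fold change 0.34 ± 0.26, or 0.40 ± 0.27 without DU replicate 6). Macrophage markers were higher in DU kidneys, with 5 of 13 called when DU replicate 6 was included. Their mean log2 CPM was 6.19 in DU replicate 6 and 3.17 to 5.21 in the other 7 DU kidneys, against 2.51 to 4.97 in Ta kidneys. The calls were not counted without DU replicate 6.

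In kidneys with Al pellets Birc5 and Pcna were higher than in Ta kidneys. Birc5 was 4.03 to 7.28 CPM with a median of 5.44 in Al kidneys, against 0.889 to 5.22 CPM with a median of 3.13 in Ta kidneys. The log2 fold change was 0.83 ± 0.26 (adjusted p = 0.0167), and every Al kidney was above the Ta median. Pcna was 39.7 to 54.9 CPM with a median of 48.2 in Al kidneys, against 34.8 to 44.1 CPM with a median of 40.7 in Ta kidneys (0.27 ± 0.09, adjusted p = 0.0282). Its call was lost without Al replicate 5, Al replicate 6 or Ta replicate 7, with adjusted p up to 0.0651. These 2 of 10 genes compare with 25.2% of all tested genes called. With the balance of small to very large genes as a covariate neither was called, Birc5 at 0.57 ± 0.35 (adjusted p = 0.416) and Pcna at 0.04 ± 0.11 (adjusted p = 0.898). No Al kidney overlapped a Ta kidney in the balance, so it and the metal cannot be told apart here either. In the same kidneys 6 of 6 podocyte, 7 of 8 endothelial, 5 of 8 stromal and 3 of 10 proximal tubule markers fell, with median log2 fold changes of -1.19, -0.87, -0.97 and -0.47, and their part in the result was not tested. Ccnb2 in Al kidneys had a log2 fold change of 1.28 ± 0.51 and missed the threshold (adjusted p = 0.0578).

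In kidneys with Co pellets 1 of the 10 genes was called, against 25.8% of all tested genes. Pcna was 36.1 to 57.1 CPM with a median of 47 in Co kidneys, against 34.8 to 44.1 CPM with a median of 40.7 in Ta kidneys (0.24 ± 0.09, adjusted p = 0.0497). Leaving out any 1 of 12 libraries ended that call, and so did the macrophage mean as a covariate (0.25 ± 0.1, adjusted p = 0.0603). With that covariate 1 other gene of the 10 was called instead, while 20.9% of all tested genes were. Of other markers 2 of 6 podocyte, 3 of 8 endothelial and 6 of 8 stromal markers fell in Co kidneys. Ccnb2 in Co kidneys was 0.388 to 5.45 CPM with a median of 1.88 (1.27 ± 0.51, adjusted p = 0.0577), and the other 8 genes had adjusted p of 0.175 or more. In kidneys with W pellets none was called, against 1.78% of all tested genes. The smallest adjusted p there was 0.145, for Pcna at 38.7 to 53.2 CPM with a median of 45.8 in W kidneys, the 1 gene of the 10 with an unadjusted p under 0.05. In the fit without DU replicate 6 Pcna was called in W kidneys (0.26 ± 0.08, adjusted p = 0.0493). DESeq2 called none of the 10 in W kidneys.

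Asked whether a gene differed anywhere among the 6 metals, the test called Birc5 (adjusted p = 0.000104), Pcna (0.000634) and Ccnb1 (0.014), while 58.4% of all tested genes were called. Differences between metals accounted for 48.3% of the variance of log2 CPM in Birc5, 43.9% in Pcna and 36.8% in Ccnb1, against 8.49% in Mki67 and 8.52% in Mcm2. Some share of this kind arises even where metals do not differ, and Mki67 and Mcm2 were not called in this test. By mean level Birc5 was ordered Pb (8.29 ± 1.43 CPM), Al (5.47 ± 1.07), W (4.08 ± 1.95), DU (3.88 ± 1.38), Co (3.61 ± 1.35) and Ta (3.06 ± 1.23; SD). Among the last 4 of that order the means lay within 1 SD of one another. Pcna was ordered Pb (55.9 ± 5.88 CPM), Al (47.6 ± 4.68), Co (46.7 ± 7.54), W (46.4 ± 4.58), DU (43.1 ± 7.7) and Ta (39.6 ± 3.35), and the means of Al, Co, W and DU lay within 1 SD of one another. Ccnb1 was ordered Pb (3.52 ± 1.09 CPM), DU (2.89 ± 1.17), Al (2.74 ± 1.14), Ta (1.79 ± 1.51), W (1.46 ± 0.994) and Co (1.36 ± 0.506).

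The 5 metals other than Ta were also set against each other in 10 pairs, with p adjusted over all genes within each pair. Of 100 tests of a gene in a pair 10 were called, all higher in the first metal named here. Pb over DU called Pcna and Birc5, Pb over Co called Ccnb1, Pcna and Birc5, Pb over W called Cdk1, Ccnb1, Pcna and Birc5, and DU over Co called Ccnb1. Birc5 in Pb kidneys, at 6.3 to 11 CPM, did not overlap DU kidneys with TMM scaling, at 2.17 to 6.12 CPM (log2 fold change 1.09 ± 0.27, adjusted p = 0.000831). It did not overlap Co kidneys either, at 1.17 to 5.37 CPM (1.2 ± 0.27, adjusted p = 0.00101). Ccnb1 in Pb kidneys, at 2.45 to 5.32 CPM, lay above every Co kidney, at 0.925 to 2.39 CPM (1.36 ± 0.42, adjusted p = 0.0142). How many of all tested genes did not overlap in these pairs was not counted. Between Pb and Al kidneys none of the 10 was called, the smallest adjusted p being 0.0779, for Pcna.

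The shares of all tested genes called in these pairs were 49.6% for Pb over DU, 19.1% for Pb over Al, 25.8% for Pb over Co and 39% for Pb over W. They were 12.7% for DU over Al, 25.2% for DU over Co and 20.7% for DU over W. They were 0% for Al over Co, 2.68% for Al over W and 0% for Co over W. In Al over Co no gene of the 15868 was called and 2 of the 10 had an unadjusted p under 0.05, and in Co over W none of the 10 had. With the balance of small to very large genes as a covariate 1 of the 10 calls was left, Ccnb1 in DU over Co kidneys (1.07 ± 0.4, adjusted p = 0.0365), where 30.2% of all tested genes were called. With the macrophage mean as a covariate that call too was lost (0.24 ± 0.43, adjusted p = 0.868), and 0.422% of all tested genes were called in DU over Co. In that fit Pb over DU called Mki67 (1.16 ± 0.41), Cdk1 (1.35 ± 0.42) and Ccnb1 (1.05 ± 0.41) besides Pcna and Birc5, against 36% of all tested genes.

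Other genes of the cell cycle were read from 5 lists. Among 34 genes of replication licensing and DNA synthesis, 13 rose and 3 fell in Pb kidneys, with a median log2 fold change of 0.38. Mcm7, another MCM subunit, averaged 46.4 ± 6.05 CPM in Pb kidneys and 28.2 ± 4.7 CPM in Ta kidneys (SD, n = 7 and 8; edgeR adjusted p = 8.79e-07). The clamp loader subunits Rfc3 and Rfc2, which place PCNA on DNA, rose by 0.87 ± 0.2 and 0.47 ± 0.11 on the log2 scale. The genes that fell were Rrm2, Tyms and Pola1, and these 3 were picked out after their values were seen. They encode a ribonucleotide reductase subunit, thymidylate synthase and the catalytic subunit of DNA polymerase alpha.

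Among 46 genes of mitosis and the spindle, 3 rose and 2 fell in Pb kidneys and 41 were not called, with a median log2 fold change of 0.21. Kif20a, a mitotic kinesin, rose by 0.87 ± 0.17 and Cdc20, the activator of the anaphase-promoting complex, by 0.62 ± 0.21. Smc2, a condensin subunit, fell to 4.51 ± 1.13 CPM in Pb kidneys, against 11.5 ± 2.08 CPM in Ta kidneys (-1.35 ± 0.23; edgeR adjusted p = 4.37e-06). Of 14 genes of entry into S phase 2 rose and 4 fell. Rb1, the retinoblastoma protein that restrains E2F, fell by 0.92 on the log2 scale (SE 0.13), Cdk4 rose by 0.41 ± 0.11, and Ccnd2, a D-type cyclin, changed by -2.5 ± 0.7. Of 7 inhibitors of cyclin-dependent kinases Cdkn2c (0.78 ± 0.13) and Cdkn2d (0.65 ± 0.25) rose and Cdkn1c (-0.66 ± 0.22) fell.

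Of 11 genes of the DREAM/MuvB repressors and their partners 1 rose and 5 fell in Pb kidneys. Rbl2, the p130 protein of that complex in resting cells, averaged 29.9 ± 3.45 CPM in Pb kidneys and 56.1 ± 7.17 CPM in Ta kidneys (-0.91 ± 0.1; edgeR adjusted p = 2.74e-10). Rbl1, which encodes p107, averaged 2.45 ± 0.659 CPM in Pb kidneys and 6.36 ± 2.08 CPM in Ta kidneys (-1.38 ± 0.22). Lin37, a MuvB subunit, rose by 0.77 ± 0.13. Counted against the 53.7% of all tested genes called, 16 of 34 replication genes, 5 of 46 mitosis genes, 6 of 14 S phase entry genes, 3 of 7 inhibitors and 6 of 11 repressor genes were called in Pb kidneys. None of these 112 genes was called in Pb kidneys with the balance of small to very large genes as a covariate.

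In the other metals fewer genes of these lists were called. Of the 112 genes 12 were called in DU kidneys, 10 in Al, 13 in Co and 1 in W kidneys, against 15.3%, 25.2%, 25.8% and 1.78% of all tested genes in those comparisons. The DU calls were made with DU replicate 6 included and were not counted without it. In DU kidneys 2 replication genes rose and 1 fell, no mitosis gene rose and 1 fell, Cdk4 of the S phase entry list rose while Ccnd1, Cdc25a and Rb1 fell, and of the repressor list Lin37 (0.38 ± 0.12) rose while Rbl2 (-0.45 ± 0.09), Tfdp2 and Lin52 fell. Melk, a kinase of dividing cells, had a log2 fold change of -1.24 ± 0.29 in DU kidneys and was called there (adjusted p = 0.00208). In Al kidneys 2 replication genes, Mcm7 (0.34 ± 0.11) and Rfc2 (0.29 ± 0.11), rose and none fell. Of mitosis genes there Kif20a (0.52 ± 0.16) rose while Smc2 and Ncapg fell, and of the repressor list Lin37 (0.4 ± 0.12) rose while Rbl1 and Rbl2 fell. The other Al calls were Cdkn2c, which rose, and Rb1, which fell. In Co kidneys 3 replication genes rose and 2 fell, Kif20a of the mitosis list rose and Smc2 fell, Lin37 and E2f5 of the repressor list rose while Rbl1 and Rbl2 fell, and E2f2 of S phase entry fell. Bub1, a spindle checkpoint kinase, was lower in Co kidneys, with a log2 fold change of -1.07 ± 0.37 (adjusted p = 0.0298). In W kidneys the 1 call over all 5 lists was Rbl1, with a log2 fold change of -0.76 ± 0.21 (adjusted p = 0.0462). These comparisons share the Ta kidneys.

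Within each metal the cell cycle genes varied widely from animal to animal. The pooled SD within groups was 1.06 log2 units for Ccnb2, 0.97 for Mki67, 0.87 for Top2a and 0.83 for Ccnb1. Mki67 ranged over 2.48 to 9.96 CPM in Pb kidneys and 1.51 to 19.2 CPM in Ta kidneys. The same animals tended to be high for many of the genes at once. Al replicate 6 was the highest Al kidney for 9 of the 10 genes, W replicate 8 the highest W kidney for 7, Co replicate 8 the highest Co kidney for 6 and Ta replicate 4 the highest Ta kidney for 6. Ta replicate 2 was the lowest Ta kidney for 5 of the genes and Ta replicate 7 for 4 of them.

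**Figure D4:**
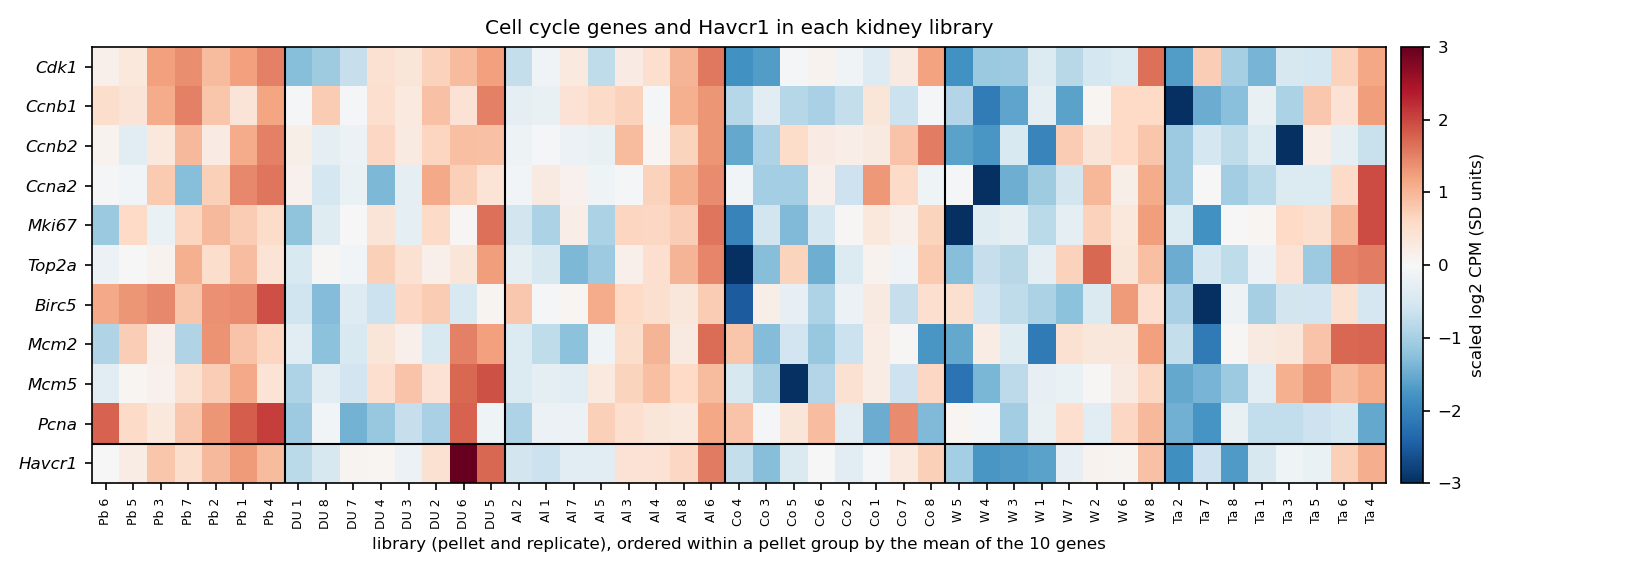
Log2 CPM of the 10 genes and of Havcr1, each centred and scaled over 47 libraries (SD units), 1 column per kidney. Libraries are ordered within each metal by the mean of the 10 genes; in most rows other than Birc5 and Pcna colour deepens to red towards the right of each metal, Havcr1 included.

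To describe this, the 10 genes were each centred and scaled in log2 CPM over the 47 kidneys and averaged. This mean ran over 0.11 to 1.18 SD units in Pb kidneys, -0.56 to 1.01 in DU kidneys, -0.3 to 1.33 in Al kidneys, -1.11 to 0.21 in Co kidneys, -1.24 to 0.97 in W kidneys and -1.36 to 0.8 in Ta kidneys. Over all tested genes outside the 10, the one whose log2 CPM had the highest Spearman's rho with it over all 47 kidneys was Havcr1, which encodes kidney injury molecule 1, a protein that injured proximal tubule cells put on their surface. Spearman's rho was 0.94 and Pearson's r 0.86 over 47 kidneys, and rho was 0.89 with the mean of each metal subtracted, where Spp1 (0.91) and Adra1d (0.9) were higher. Havcr1 was picked for this likeness, so no p is given.

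The relation was present within each metal taken alone. Spearman's rho between the mean of the 10 genes and Havcr1 was 0.86 in Pb, 0.88 in DU, 0.95 in Al, 0.9 in Co, 0.83 in W and 0.95 in Ta kidneys (n = 7 for Pb and 8 for each other metal). Without DU replicate 6 (1180 CPM of Havcr1) and Ta replicate 2 (3.86 CPM), the 2 kidneys farthest from the median of Havcr1, Pearson's r was 0.91. Havcr1 itself was 29.6 to 119 CPM in Pb kidneys and 3.86 to 97.5 CPM in Ta kidneys, and did not pass the threshold there (log2 fold change 1.13 ± 0.75, adjusted p = 0.209). In DU kidneys, where none of the 10 genes was called, Havcr1 was called (2.61 ± 0.77, adjusted p = 0.0151) and so was Lcn2, another injury marker (5.16 ± 1.1, adjusted p = 0.000903). Without DU replicate 6 neither was, with 0.74 ± 0.62 for Havcr1 (adjusted p = 0.506) and 1 ± 0.69 for Lcn2 (adjusted p = 0.401). The mean log2 CPM of 8 tubular injury markers (Havcr1, Lcn2, Spp1, Clu, Krt20, Vcam1, Sox9 and Cd44) gave a rho of 0.91, or 0.87 with metal means subtracted. Of these 8 markers 2 rose and 1 fell in DU kidneys with DU replicate 6 included, the last being Sox9 (-0.69 ± 0.14, adjusted p = 0.000759 by edgeR). In Pb kidneys none rose and 1 fell, Vcam1 (-1.89 ± 0.44, adjusted p = 0.00028 by edgeR). All these libraries share the scaling of their counts, and rho with the total count per library was -0.07.

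**Figure D5:**
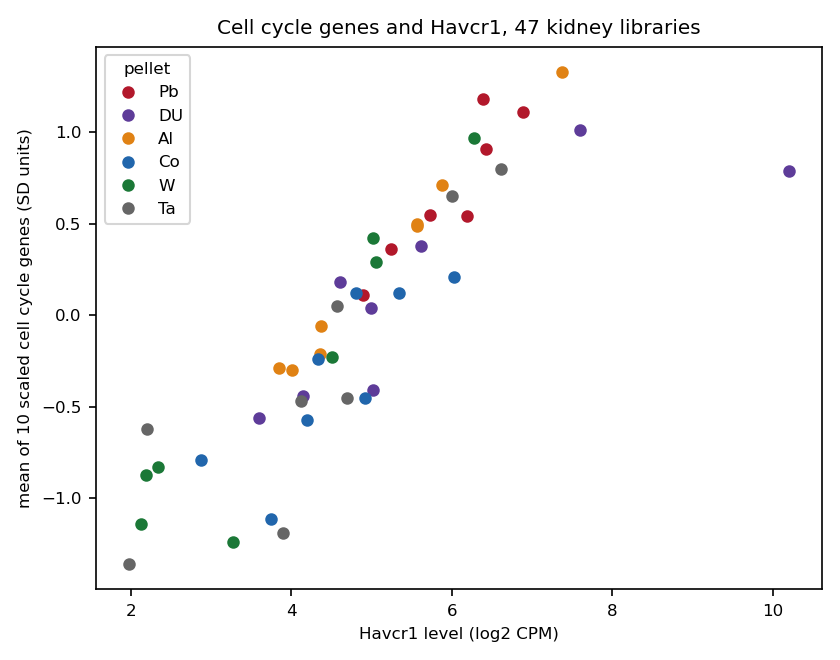
Mean of the 10 scaled genes (SD units) against Havcr1 (log2 CPM) in 47 kidney libraries, coloured by metal. Points of all 6 metals follow 1 rising band (Spearman's rho 0.94), with DU replicate 6 (1180 CPM of Havcr1) at the far right.

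Single genes followed Havcr1 to different degrees. The rank correlation (Spearman's rho) over 47 kidneys was 0.86 for Cdk1, 0.79 for Mki67, 0.77 for Top2a, 0.77 for Mcm5, 0.74 for Ccnb1, 0.73 for Ccnb2, 0.71 for Ccna2 and 0.6 for Mcm2. It was 0.53 for Birc5 and 0.39 for Pcna, and 0.32 and 0.36 with metal means subtracted. The 28 pairs among the other 8 genes had a median rho of 0.58 (0.29 to 0.78). The 9 pairs with Pcna had a median of 0.28 (0.08 with Mki67 to 0.4), and the 8 pairs of Birc5 with those 8 genes a median of 0.41. Between Pcna and Birc5 rho was 0.4, and 0.05 with metal means subtracted. The 2 genes that separated Pb from Ta kidneys without overlap under TMM scaling were those with the lowest rho with Havcr1. The share of all tested genes that separated these kidneys without overlap was not counted.

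With the mean of the injury markers as a covariate, a fit added after these relations were seen, Birc5 (1.30 ± 0.27, adjusted p = 7.01e-05) and Pcna (0.43 ± 0.09, adjusted p = 0.000106) were called in Pb kidneys, while 57.1% of all tested genes were. Ccnb1 (0.75 ± 0.34, adjusted p = 0.0591) and Ccnb2 (0.99 ± 0.48, adjusted p = 0.0753) were not called in that fit. Cdk1 was at 0.46 ± 0.28 and Mki67 at -0.56 ± 0.32. The covariate holds Havcr1, Spp1 and Clu, which were among the genes most alike to the mean of the scaled genes. Spearman's rho with the covariate was 0.49 for Birc5 and 0.26 for Pcna, against 0.77 for Ccnb1 and 0.66 for Ccnb2. Because the genes already differed in this way before the fit, which calls were kept or lost is no separate result.

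The next genes in likeness were Adra1d (rho 0.93), Spp1 (0.93), Gpx2 (0.91), Tnfrsf12a (0.91), Clu (0.9), Myl12a (0.9), C4b (0.9), Tmsb10 (0.89) and RGD1565779 (0.89), each over 47 kidneys. With metal means subtracted their rho lay between 0.83 and 0.91. Spp1 encodes osteopontin and Clu clusterin, both secreted by injured tubules, and both stand on the injury list with Havcr1. Gpx2 encodes a glutathione peroxidase, Tnfrsf12a the receptor of the cytokine TWEAK, C4b a complement component, Tmsb10 a thymosin that binds actin and Myl12a a myosin light chain. Spp1 was 1750 to 9180 CPM in Pb kidneys and 365 to 6820 CPM in Ta kidneys, and was not called there (1.08 ± 0.61, adjusted p = 0.134). Tnfrsf12a (1.26 ± 0.38, adjusted p = 0.00501) and Tmsb10 (1.23 ± 0.39, adjusted p = 0.00628) were higher in Pb kidneys than in Ta kidneys.

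The mean of the 10 genes was also set against the immune cell lists. The rank correlation (Spearman's rho) was 0.43 with the macrophage mean, 0.53 with the T and NK mean and 0.61 with the B and plasma cell mean, or 0.6, 0.58 and 0.49 with metal means subtracted. With the balance of small to very large genes rho was 0.53, or 0.37 with metal means subtracted. For Pcna rho with the balance was 0.62 (0.41 with metal means subtracted) and for Birc5 it was 0.63 (0.19 with metal means subtracted). How much of any of these relations is due to the number of immune cells or to RNA quality was not tested.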

How the data were processed

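Raw counts per gene were deposited by the authors. Per the submitters' processing notes, reads were aligned with STAR 2.7.2a to mRatBN7.2 and counted with featureCounts of Subread 1.6.4. The annotation, the strand setting and the treatment of reads that match several places are not given in the sources used here. Lines without a gene name (24, with at most 0.056% of a library's counts) and 5 genes whose lines hold no counts were not used. Symbols of 82.8% of 22525 genes were found in RefSeq.

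One edgeR 4.0.16 fit (R 4.3.3) over 47 libraries used filterByExpr, TMM factors and two-sided quasi-likelihood F tests. p was Benjamini-Hochberg adjusted over 15868 genes per comparison, with a threshold of 0.05, and "called" means below it. Log2 CPM used a prior count of 2.

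The 10 genes and all lists were chosen with earlier results of these data known. Named besides the 10 were the 3 genes of smallest p per list and comparison with Ta, and the 10 genes most alike by Spearman's rho; other genes were named after their values were seen. Alternatives were DESeq2 1.42.0, RLE and upper quartile factors, other filters, covariates and fits without each library. Plain library totals were used for levels only and not in a fit.

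Replicate numbers did not pair libraries across metals: residuals of 115 pairs of libraries with the same number had a median correlation of 0.0116 (-0.353 to 0.36). This says nothing of low against high replicate numbers within a metal. No library was a copy of another of its group (161 pairs compared; chi-square per degree of freedom 16.3 or more). The labels name an animal per library. The fit was tested on simulated data: a first criterion, on the share of large changes recovered, was narrowly missed in 1 comparison (Co) and was replaced by criteria on sign, false calls and bias, which were met. No depth-based interval is given, since small counts were even too often (66.7% to 79.6% of values from 1 to 9 per library).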

Additional observations from a re-analysis of the deposited data

Results flagged for a closer look

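Each of the 10 genes was checked in each of 6 groups for a kidney that lies far from the others of its group on the log2 scale (60 checks), and 6 values stood out by Dixon's ratio, where chance gives about 1 in 20. Mki67 was 0.445 CPM in W replicate 5, the next W kidney having 3.02 CPM. Cdk1 was 7.02 CPM in W replicate 8, the next having 2.04 CPM. Ccnb2 was 0 CPM in Ta replicate 3, the next having 0.579 CPM. Mcm5 was 0.548 CPM in Co replicate 5, the next having 2.02 CPM. Pcna was 60.5 CPM in DU replicate 6, the next having 45.1 CPM. Birc5 was 0.889 CPM in Ta replicate 7, the next having 2.51 CPM.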

How the results depend on the processing

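Fits were repeated with each other setting named above and 3 more chosen after seeing the data (the injury marker covariate, fits without Ta replicates 4 and 6, and fits without DU replicates 5 and 6). Birc5 and Pcna in Pb kidneys were called under all of them except the balance covariate. No fit was made with plain library totals, under which the Pb and Ta ranges of both genes overlapped. With the balance covariate the number of the 10 genes called was 0 for Pb, Al and Co against Ta, 0 among all 6 groups and 1 over the pairs of metals, and the Pb log2 fold changes of Ccnb1 (-0.14) and Ccnb2 (-0.67) turned negative. The balance and the metal cannot be told apart there. With the injury covariate 2 genes were called for Pb, against 57.1% of all tested genes, and 5 over the pairs. That covariate itself followed the mean of the scaled genes (Spearman's rho 0.91), so calls kept or lost with it are no separate check. For Co the count was 2 with DESeq2 (28.4% of all tested genes called), the strict filter (28.7%) and without DU replicates 5 and 6 (29.1%). It was 0 with upper quartile factors (25.6%), no filter (19.8%), only the groups compared (21.5%) and without Ta replicates 4 and 6 (17.6%). For DU it was 1 with DESeq2 (16.3% of all tested genes called) and without Ta replicates 4 and 6 (17.9%). For W it was 1 without DU replicates 5 and 6 (7.03%). The cause was not tested.

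Leaving out each of 47 libraries in turn gave 3 to 5 called genes for Pb, 0 to 1 for DU, 1 to 3 for Al, 0 to 2 for Co, 0 to 1 for W, 3 to 4 among all 6 groups and 7 to 11 over the pairs. Shares of all genes called are not given for most of these fits. The log2 fold change in Pb kidneys stayed at 1.3 to 1.6 for Birc5 and 0.47 to 0.54 for Pcna. With the replicate number as a block, which the residuals gave no pairing for, 5 genes were called for Pb, 0 for DU, 2 for Al, 1 for Co, 0 for W, 4 among all 6 groups and 11 over the pairs. The shares of all tested genes were then 53.6% for Pb, 15% for DU, 26.1% for Al, 27% for Co, 2% for W and 57.7% among all 6 groups. Summed CPM of the 10 genes was 1.32 times as high in Pb as in Ta kidneys, 1.35 times with RLE factors and 1.08 times with plain library totals, and each group mean moved by less than 1 SD. Plain totals of single genes were added after seeing the data.

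Ccnb1, Ccnb2 and Ccna2 had 0 to 155 reads per library, which limits what can be seen in them.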
